A study of Homo sapiens with 12 samples.

Results

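Broad H3K27me3 domains are stretches of chromatin in which the repressive mark runs over many kilobases without a long break. In the Tau expressing (WT) SH-SY5Y cells, 3890 such domains were found among 43632 autosomal intervals that held peaks of both WT samples. An interval was made of peaks that overlapped or lay within 1 kb of each other, and a domain was an interval at least 20 kb wide. The domains were thus chosen by the positions and widths of the WT peaks, and every WT value below is a description. The domains were 8.92% of the intervals by number but held 159.7 Mb, 44.96% of the intervals' length and 5.55% of the autosomes.

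SH-SY5Y is an established human neuroblastoma cell line. H3K27me3 ChIP-seq was done on WT cells and on 231K and 232P, lines in which MAPT, the gene of Tau, was disrupted with CRISPR-Cas9 (Tau-KO). Each genotype had 2 biological replicates and each Tau-KO genotype was a single line, so that a difference between 231K and 232P can be one between lines. The 6 input samples were not analysed here. Peak names inside the lists labelled 232P start with 231P; the grouping here is that of the sample labels. 231P is the name of another Tau-KO line of the study, so which of these lines the lists describe is uncertain. 232P replicate 1 stood apart from the other samples, so results are given by sample throughout.

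H3K27me3 is written by PRC2, whose subunit EZH2 is the methyltransferase and whose subunit EED binds the finished mark, which lets the complex spread along chromatin from the site where it was recruited. In mammals PRC2 is known to be recruited at CpG islands of silent developmental genes, and the mark can extend from there over whole gene clusters such as the HOX clusters. Broad domains are also known over silent gene-poor chromatin and over clustered genes that serve other tissues.

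To show what the sequence under these domains looks like, 120 bases around the strongest WT replicate 1 summit are printed for 4 domains. The domains were ordered by GC content and divided into 5 equal classes, and the domain of the highest WT enrichment was taken from each of the upper 4. All are from hg38, plus strand, with CpG dinucleotides in capitals. They come from the domains of CR2 and CR1 (lowest GC class shown, chr1:207496973-207497092), CAV2 and CAV1 (chr7:116499014-116499133), a domain 171170 bp from RNF32 (chr7:156364180-156364299) and the HOXB domain (highest GC class, chr17:48598996-48599115).
CR2 and CR1: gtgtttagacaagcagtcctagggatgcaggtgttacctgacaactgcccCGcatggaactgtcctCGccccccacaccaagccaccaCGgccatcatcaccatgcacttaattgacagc
CAV2 and CAV1: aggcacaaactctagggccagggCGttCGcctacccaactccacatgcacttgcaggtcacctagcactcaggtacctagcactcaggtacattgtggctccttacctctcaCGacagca
near RNF32: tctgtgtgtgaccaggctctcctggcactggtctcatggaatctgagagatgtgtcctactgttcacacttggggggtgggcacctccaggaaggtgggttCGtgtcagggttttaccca
HOXB: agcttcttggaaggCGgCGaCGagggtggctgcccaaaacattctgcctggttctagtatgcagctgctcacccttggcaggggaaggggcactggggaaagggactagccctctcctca
The 4 sequences held 3, 3, 1 and 3 CpGs in this order. Even the strongest summit of the HOXB domain was thus not a dense run of CpGs.

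Start sites differed more. The RefSeq promoters (GRCh38.p14, 250 bases before to 50 after the start, minus strand, read 5′ to 3′) of 3 genes whose start site lay in a domain are printed to show the range, again with CpGs in capitals. They were chosen after their values were seen. IL1B, a cytokine gene (chr2:112836730-112837029), had 2 CpGs, TBX5, a T-box factor of heart and limb (chr12:114407963-114408262), had 21, and WNT2, a WNT ligand (chr7:117323009-117323308), had 43.
IL1B: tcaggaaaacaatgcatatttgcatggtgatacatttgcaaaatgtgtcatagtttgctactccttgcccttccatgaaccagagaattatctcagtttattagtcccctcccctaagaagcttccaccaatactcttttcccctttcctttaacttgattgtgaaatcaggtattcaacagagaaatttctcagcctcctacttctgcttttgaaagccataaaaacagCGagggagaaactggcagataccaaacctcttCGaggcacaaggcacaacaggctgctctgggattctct
TBX5: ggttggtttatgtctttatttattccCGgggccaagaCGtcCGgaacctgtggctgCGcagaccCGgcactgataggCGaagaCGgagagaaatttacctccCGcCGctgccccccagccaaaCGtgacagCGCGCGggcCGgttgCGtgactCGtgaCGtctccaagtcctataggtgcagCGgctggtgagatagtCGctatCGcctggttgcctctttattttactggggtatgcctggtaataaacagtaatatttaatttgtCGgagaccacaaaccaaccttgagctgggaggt
WNT2: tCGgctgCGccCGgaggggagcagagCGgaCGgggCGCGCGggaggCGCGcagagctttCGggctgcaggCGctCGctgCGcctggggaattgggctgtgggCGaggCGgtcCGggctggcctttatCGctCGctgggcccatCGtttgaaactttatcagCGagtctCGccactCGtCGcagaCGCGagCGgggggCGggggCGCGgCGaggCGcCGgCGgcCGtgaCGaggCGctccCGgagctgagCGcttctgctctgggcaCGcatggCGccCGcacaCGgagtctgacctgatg
Peaks covered 100% of the IL1B promoter in both WT and both 231K samples and in 232P replicate 2, and 0% in 232P replicate 1. The TBX5 promoter was covered to 72.7% and 100% in WT, to 100% in both 231K samples, and to 100% and 5.67% in replicates 1 and 2 of 232P. The WNT2 promoter was covered to 0% in both WT and both 231K samples and in 232P replicate 2, and to 16.3% in 232P replicate 1, although it lay inside a domain 64610 bp wide.

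The domains had a median width of 32.0 kb (31973 bp, quartiles 24474 and 47267 bp), against 3848 bp for all intervals, and 862 of them were at least 50 kb and 155 at least 100 kb wide. The 3 narrowest were 20018, 20020 and 20022 bp wide and lay near MTRR, AGA and CENPJ, and the 3 widest intervals that missed the threshold, at CFAP299 and near SLC4A3 and TRMT9B, were 19990, 19978 and 19974 bp wide. The WT peaks covered on average 79.6%, 63.6% and 68.7% of these 3 domains and 48.8%, 52.3% and 61.7% of the 3 intervals, in the same order.

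**Figure D1:**
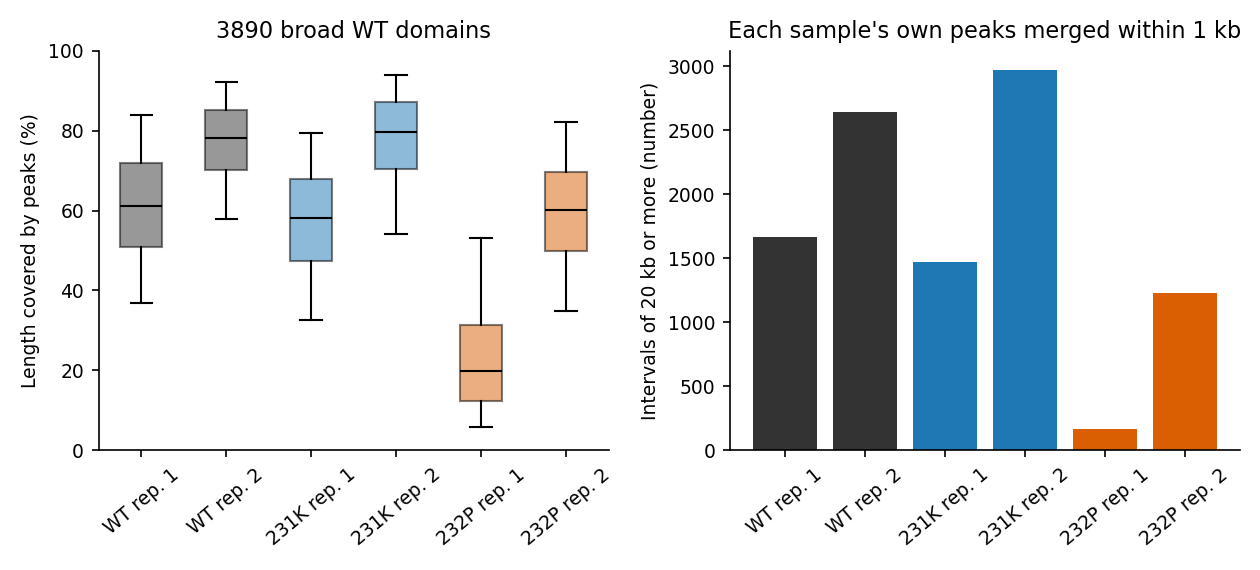
Left, share of each domain's length covered by a sample's peaks, in percent, over the 3890 domains (box, quartiles and median; whiskers, 5th and 95th percentiles) in replicates 1 and 2 of WT, 231K and 232P. Right, number of intervals of 20 kb or more made from each sample's own peaks. The median is lowest in 232P replicate 1, at 19.9%, and 231K lies beside WT of the same replicate number.

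A WT domain was on average covered by peaks to 61.0% in replicate 1 and 77.1% in replicate 2. In 231K the same domains were covered to 57.3% (replicate 1) and 77.7% (replicate 2). In 232P they were covered to 23.5% (replicate 1) and 59.6% (replicate 2). The 231K samples lay close to the WT sample of the same replicate number and both 232P samples lay below it, while 232P replicate 2 was above replicate 1 of 231K. The mean covered share was 69.0% ± 11.4 in WT, 67.5% ± 14.4 in 231K and 41.5% ± 25.5 in 232P (SD, n = 2 each). It was 0.615 times as high in 232P as in 231K, 0.409 times between replicates 1 and 0.766 times between replicates 2. WT values do not enter this ratio, although WT peaks chose the domains. Without regard to replicate number it was not larger than the spread between samples (exact permutation test, two-sided, p = 0.667, where 2 against 2 samples allow no p below 0.333). Permuted within replicate number, where 232P was the lower sample both times, p was 0.5, the smallest that 2 pairs allow (exact). The ratio was 0.347 without 232P replicate 2. Against WT, the ratio was 0.978 for 231K and 0.601 for 232P, given as a description. The depth estimated from the lists was 100%, 66.6%, 94.8%, 68.7%, 68.1% and 56.9% of the deepest sample in WT 1 and 2, 231K 1 and 2, and 232P 1 and 2. Within each genotype the deeper sample was the less covered, and 231K replicate 2 and 232P replicate 1 were almost equally deep. Within each replicate number, however, 232P was shallower than 231K as well as less covered. Apart from the thinning that follows, the part of depth in the difference between 232P and 231K was not tested. With the summit reads of the listed peaks thinned to equal estimated depth and peaks kept by p-value, without calling them anew, the ratio of 232P to 231K was 0.651.

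Few domains were without any peak, but 1 peak in 20 kb or more is enough to meet this. Coverage was under 10% in 655 domains in 232P replicate 1 and in 4 in 232P replicate 2. It was so in 3 domains in 231K replicate 1 and in 0 in the other samples. No domain was without a peak in both samples of 231K or in both of 232P, against 9.63% and 18.8% of all 43632 intervals. The intervals of 10 to 20 kb were alike in this, with 0.0184% and 0.11% of 5445 without a peak. Only 232P replicate 1 lacked a peak in any domain, in 4 of them, between 81649 and 471902 bp from the nearest protein-coding gene, near VRK2, CNTNAP2, SLC30A8 and TYRP1. The width and number of peaks in a domain and its highest enrichment were then compared. The widest single peak in a domain had a median width of 3659 and 6888 bp in WT, 3387 and 8003 bp in 231K, and 1118 and 4238 bp in 232P. The median number of peaks per domain was 19 and 13 in WT, 19 and 11 in 231K, and 14 in both 232P samples, so replicate 1 broke the same domain into more pieces than replicate 2 in WT and 231K. The highest fold enrichment in a domain (reads at the summit over local background, as deposited) had a median of 6.35 and 7.15 in WT, 6.63 and 7.65 in 231K, and 5.75 and 6.50 in 232P, so that both 232P samples were below both 231K samples but not below both WT samples.

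So as not to give the WT lists an advantage, the intervals of 20 kb or more were also counted in each sample's own peak list. They numbered 1667 and 2646 in WT, 1471 and 2972 in 231K, and 166 and 1230 in 232P. Both 232P samples lay below the other 4, and 231K enclosed WT. The mean was 0.677 times WT for the 4 Tau-KO samples (exact permutation test, two-sided, p = 0.467, smallest possible 0.0667), 1.03 times for 231K (p = 1, exact) and 0.324 times for 232P (p = 0.333, exact, the smallest possible). 232P had 0.314 times as many as 231K (exact permutation test, p = 0.333, the smallest possible). This ratio was 0.554 without 232P replicate 1, 0.0747 without 232P replicate 2 and 0.475 without 231K replicate 2. That of Tau-KO to WT was 0.443 without 231K replicate 2. None passed a threshold of 0.05, with p-values adjusted over these 4 and that of the covered share of 0.778 to 1 (Benjamini-Hochberg on 5 exact permutation tests). Over all sample summaries 23 such tests were computed, and the lowest p was 0.333 (exact).

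When the rule of both replicates was applied to each genotype in turn, WT had 3890 domains, 231K 3858 and 232P 2032. Of the WT domains, 82.2% overlapped a 231K domain and 43.9% a 232P domain, and of the 232P domains 96.9% overlapped a WT domain. The 663 domains of 231K and 64 of 232P that overlapped no WT domain were not new territory either, since WT peaks of replicates 1 and 2 covered a median of 43.5% and 61.9% of the former and 58.0% and 72.7% of the latter, and 0 of them had a WT coverage under 10% in both replicates.

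The widest domain, 441290 bp at chr17:48375412-48816701, held all 10 HOXB genes, factors that set position along the body axis, with PRAC1, PRAC2 and TTLL6. SKAP1, an adaptor of T cells, also starts in it. Its covered share was 89.1% and 93.7% in WT, 86.0% and 93.0% in 231K, and 73.8% and 87.8% in 232P, so that only 232P replicate 1 stood apart from the rest. Next to it lay the domain over SKAP1, 211328 bp wide, covered to 85.8% and 97.0% in WT, 87.9% and 98.9% in 231K, and 45.6% and 93.6% in 232P. The other domains of the 10 widest were over GLI3, a transcription factor of Hedgehog signalling (269851 bp), PRKACG, a catalytic subunit of protein kinase A (238748 bp), GSX1 and PDX1, homeobox factors of the forebrain and the pancreas (216449 bp), KCND2, a potassium channel (208282 bp), and TFAP2C (207201 bp), and near SHH (218260 bp), FOXQ1 (206934 bp) and SOX17 (204666 bp). In each of these 10, 232P replicate 1 or 2 was the lowest sample, and 232P replicate 1 ranged from 27.4% at KCND2 to 78.8% near SHH.

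**Figure D2:**
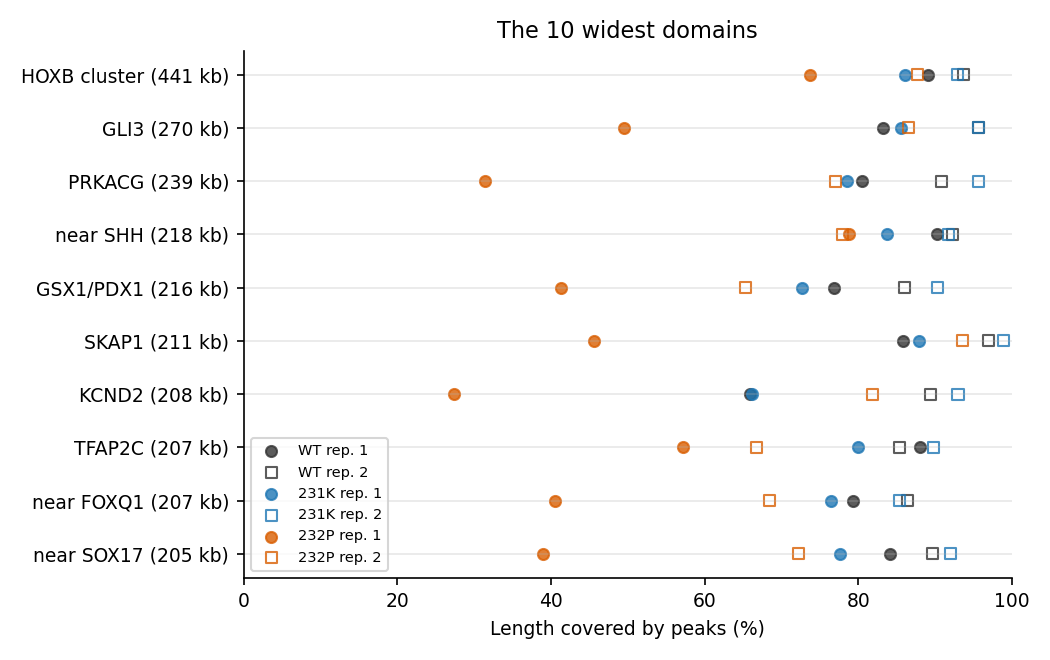
Share of length covered by peaks, in percent, in the 10 widest domains (name and width at the left). Filled circles are replicate 1 and open squares replicate 2 of WT, 231K and 232P. 232P replicate 1 spreads from 27.4% at KCND2 to 78.8% near SHH, while the other samples stay at 65.3% or above.

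A second concentration lay on chromosome 7, chosen for display after the values were seen. Between chr7:155413631 and chr7:156469110, from EN2, an engrailed homeobox gene of the midbrain, past SHH, the Sonic hedgehog ligand, towards RNF32, 8 domains filled 71.6% of 1055 kb. They were covered, on average, to 90.6% and 92.7% in WT, 80.1% and 89.6% in 231K, and 78.3% and 79.6% in 232P. Here 232P replicate 1 lay level with 232P replicate 2 and 231K replicate 1, unlike over all domains. The 10 domains of highest WT enrichment included the HOXB domain, 4 of these 8, UNCX, a homeobox gene, the complement receptor genes CR2 and CR1, and DEFA4, a defensin gene of neutrophils. Another of the 10, 37194 bp from GALNT9, had a highest fold enrichment of 11.3 and 11.5 in WT, 20.9 and 10.4 in 231K, and 8.0 and 8.8 in 232P, so that a single 231K sample was far above the rest.

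Most domains did not hold a gene start. A protein-coding start site lay in 1115 of 3890 (28.7%), another 788 (20.3%) overlapped only the body of such a gene, and 1987 (51.1%) touched none, with a median distance to the nearest of 98.0 kb. In all, 1180 of 19103 protein-coding genes (6.18%) had a start site of any annotated transcript in a domain, for 868 of them the outermost one of the gene, as did 1145 of 18374 long non-coding RNA genes (6.23%), and 537 protein-coding genes lay wholly inside. Domains with a start site were wider (median 39884 bp) than those overlapping only a gene body (29375 bp) or no gene (29629 bp). Their covered share was also higher in every sample, 64.9% against 59.9% without a gene in WT replicate 1 and 27.6% against 22.4% in 232P replicate 1.

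Developmental regulators were among the genes inside. Of 39 HOX genes, 15 had a start site in a domain (38.5%, against 6.18% of all protein-coding genes), among them the 10 HOXB genes, HOXC11 and HOXC12. Of 106 other homeobox genes, 19 did (17.9%), among them PAX3, PAX6, PAX7 and PAX8, factors of neural crest, eye, muscle and thyroid, and EN1, LMX1A, CDX2 and NKX2-5. Lists of other regulators had fewer. Inside were 3 of 51 forkhead, SOX, T-box, GATA and ZIC genes (FOXB1, TBX5 and TBX15) and 3 of 26 listed bHLH genes (NEUROD6, MSC and TCF21). Of 51 WNT, BMP and FGF ligands, 3 had a start site in a domain (WNT2, BMP4 and FGF9). Inside were also 2 of 53 axon guidance genes (EPHA4 and EPHB6), 6 of 42 collagen genes and 8 of 39 senescence genes, the last being the cytokine and chemokine genes IL1B, IL6, CXCL1 and CXCL2, the matrix metalloproteinase genes MMP1, MMP3 and MMP10, and EREG. None of 53 clustered protocadherin genes, 12 genes of PRC2 and its partners, or 18 housekeeping genes had a start site in a domain. A start site of any annotated transcript counts here, so these are not counts of marked promoters. The RefSeq promoters of LMX1A and EPHB6, among others, lay outside their domains. Those of PAX6 and PAX3 lay inside but were covered to 0% and to at most 6.33% in any sample. Over all 1180 genes, WT peaks overlapped 81.8% and 84.5% of 300-base windows at the start sites inside. The lists were chosen with earlier results of these data known, and these counts carry no test.

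The covered share differed between the lists, most of all in 232P replicate 1. The 3 HOX domains were covered on average to 85.1% and 90.2% in WT, 79.1% and 88.9% in 231K, and 70.2% and 79.7% in 232P. The 8 domains with senescence genes were covered to 62.2% and 80.9% in WT, 59.96% and 81.2% in 231K, and 22.8% and 67.5% in 232P. At IL6, the cytokine, the domain was covered to 78.8% and 91.4% in WT, 78.1% and 94.3% in 231K, and 44.8% and 86.0% in 232P. At PAX6 it was 60.2% and 58.9% in WT, 44.7% and 59.4% in 231K, and 58.4% and 42.7% in 232P, so that here 232P replicate 1 was above 231K replicate 1.

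The labelled cell type was set beside its markers. SH-SY5Y is known as an adrenergic neuroblastoma line, and none of 11 adrenergic markers (such as PHOX2A, HAND2, GATA3, DBH and TH) had a start site in a domain. Of 10 markers of the mesenchymal state, PRRX1, RUNX1 and MEOX2 had a start site in a domain, and the others had one in no interval. In longer lists it was 4 of 26 mesenchymal-state and 0 of 19 adrenergic genes, against 6.18% of all protein-coding genes. RUNX1, and YAP1 of the longer list, count through other start sites. Their RefSeq promoters (chr21:34888650-34888949 and chr11:102110197-102110496) lay outside these domains and were covered to 0% in all 6 samples. A histone mark does not measure expression, and these are positions only.

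Genes whose symbols share a root were also counted, and the families named here were picked after their values were seen, for their high shares. Start sites in domains were found for 6 of 6 TAAR genes (trace amine receptors), 6 of 6 SLFN genes, 10 of 12 CEACAM genes (cell adhesion), 11 of 14 NLRP genes (inflammasome and germ-line proteins), 7 of 10 SERPINA genes (protease inhibitors of the liver), 10 of 15 KLK genes (kallikreins), 32 of 55 KRT genes (keratins), 14 of 27 CCL genes (chemokines), 15 of 31 CLEC genes (lectins) and 99 of 415 OR genes (olfactory receptors), against 6.18% of all protein-coding genes. Not all large roots had high shares, as SLC (solute carriers) with 22 of 359 and TMEM with 6 of 231 show. How reads that match several copies were treated is not given in the sources used here, so peaks over near-identical copies are uncertain.

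Domains were then compared in base composition, which the rule did not use. Their median GC content was 40.4%, against 38.7% in the narrower intervals and 41.0% over the autosomes, and ranged from 32.4% to 58.0%. CpG islands (windows of 500 bp with at least 55% GC and an observed to expected CpG ratio of at least 0.65) made up 0.744% of the domains' length and 1.19% of the autosomes, and 921 domains (23.7%) held any. Inside domains the islands were the less covered part in 5 of 6 samples: peaks covered 44.9% and 39.3% of island bases in WT, against 64.3% and 79.8% of the other bases, 28.6% and 33.0% in 231K, against 61.0% and 80.9%, and 17.6% in 232P replicate 2, against 63.1%. 232P replicate 1 was the exception, with 40.6% of island bases and 26.4% of the others.

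Start sites were then compared by their CpGs. Of the 1180 windows of 300 bases at the start sites in domains, 690 (58.5%) had under 5 CpGs, against 20.7% of all protein-coding start sites, and 174 (14.7%) had 15 or more, against 56.9%. Each window was placed at a start site inside the domain, and for the 868 genes whose outermost start site this was, the shares were 56.8% and 16.8%. Peaks overlapped 84.9% and 92.9% of the CpG-poor windows in WT, 82.6% and 93.3% in 231K, and 49.9% and 80.0% in 232P. They overlapped 54.0% and 47.1% of the CpG-rich windows in WT, 33.9% and 45.4% in 231K, and 44.8% and 22.4% in 232P. The replicates of 232P and those of WT thus changed places between these classes, and those of 231K did not. The 3 promoters printed above fall in these classes: IL1B was without a peak in 232P replicate 1 alone, and TBX5 was almost without in 232P replicate 2 alone.

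GC content separated the replicates more than the genotypes. From the lowest to the highest of the 5 GC classes (778 domains each), the mean covered share went from 45.9% to 75.5% in WT replicate 1, from 45.5% to 66.95% in 231K replicate 1 and from 12.4% to 41.8% in 232P replicate 1. In replicate 2 it stayed between 74.3% and 78.9% in WT, 73.4% and 80.2% in 231K, and 58.0% and 60.7% in 232P. Over the 3890 domains, Pearson's r between GC content and covered share was 0.705, 0.491 and 0.732 in replicates 1 of WT, 231K and 232P, and 0.124, 0.147 and -0.047 in replicates 2. These are descriptions within libraries, since domains share the library and neighbouring domains their base composition. The labels do not say what sets the replicate numbers apart. The shortest peak in a list, taken here as the fragment length of the peak caller, was 175 to 179 bp in replicates 1 and 240 to 262 bp in replicates 2; the part of this in the result was not tested.

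**Figure D3:**
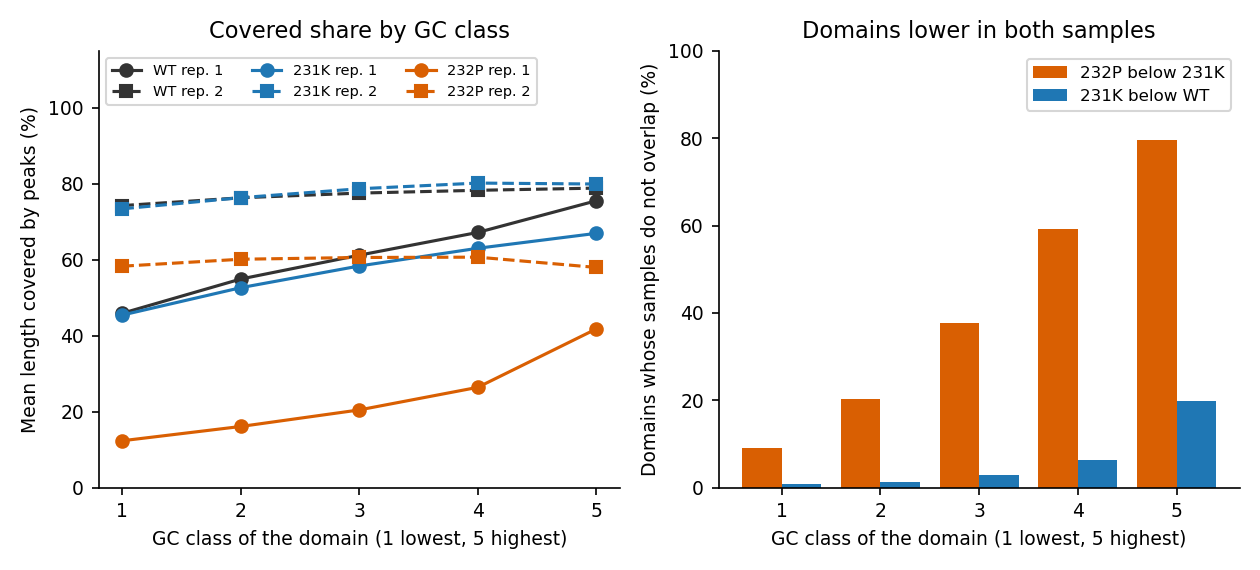
Left, mean share of domain length covered by peaks, in percent, for 5 classes of the 3890 domains by GC content (778 each), by sample (solid lines, replicate 1; dashed lines, replicate 2). Right, percentage of domains in which both samples of a genotype lie below both of the other. Replicates 1 climb with GC content and replicates 2 stay level, and the domains with 232P below 231K go from 9.13% to 79.6%.

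Single domains were called lower when both samples of a genotype lay below both of the other. By this rule 232P was below 231K in 1601 domains, or 41.2%, where the same share over all intervals was 30.8%, and above it in 0 domains, against 0.605%. The count was 907 (27.9% of the domains then found) with listed peaks thinned to equal estimated depth, which leaves the widths of kept peaks unchanged. Without WT replicate 2 the count was 962 (57.7%). Among the same 3890 domains it was 3778 (97.1%) without 231K replicate 1 and 3856 (99.1%) without 232P replicate 2. Between 231K and WT, which chose the domains, 244 domains (6.27%, all intervals 31.6%) were lower in 231K and 28 (0.72%, all intervals 1.86%) higher. 232P was below WT in 1992 domains (51.2%, all intervals 60.5%) and above it in 0 (all intervals 0.0229%), and nothing is read from these counts against WT. Within the same replicate number, 232P lay below 231K in 3857 of 3890 domains in replicate 1 (99.2%) and in 3793 in replicate 2 (97.5%), with median differences of -35.1 and -18.2 percentage points. 231K lay below WT in 2627 domains in replicate 1 (67.5%) and in 1656 in replicate 2 (42.6%).

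Which domains were called by this rule, which does not pair replicate numbers, went with their GC content: 232P was below 231K in 9.13% of the domains in the lowest GC class, then in 20.3%, 37.7%, 59.1% and 79.6%. In the same order, the ratio of covered share between 232P and 231K was 0.273, 0.307, 0.351, 0.419 and 0.624 in replicates 1, and 0.794, 0.788, 0.770, 0.757 and 0.726 in replicates 2. Within replicate numbers nearly all domains were lower in 232P in every class, which leaves little room for a gradient. In replicate 1 the share was 100% in the 4 lower classes and 95.8% in the highest, and in replicate 2 it went from 93.4% in the lowest class to 99.7% in the highest. The called share was largest where replicate 1 differed least between the lines. In that class the 231K replicates also lay closest together, at 66.95% and 79.9%, against 45.5% and 73.4% in the lowest. When each domain's covered share was replaced by its rank among the domains of the same sample, an alternative chosen after seeing the data, 521 domains (13.4%) were lower in 232P and 435 (11.2%) higher.

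The named domains of largest difference show the pattern. In the TRPM3 domain (chr9:70932786-70964630, inside a cation channel gene), peaks covered 58.3% and 86.8% in WT, 37.1% and 89.99% in 231K, and 2.80% and 23.5% in 232P. In a domain at chr21:35719644-35739760, they covered 75.9% and 78.2% in WT, 80.6% and 87.6% in 231K, and 23.2% and 52.3% in 232P. It overlapped the annotated body of RUNX1, a transcription factor of blood formation, but lay upstream of the RefSeq promoter given above. Both 232P samples were below the other 4 in each domain. The others of the 5 largest drops from 231K to 232P lay near PRKCB, TMEM114 and ANXA2. Since these domains were picked for the difference, no test is given.

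The 5 domains with the lowest mean over the 4 Tau-KO samples lay near NUPR2, FLRT2, SIRPG and IGHV3OR16-17 and at CCDC144A. They were picked for low Tau-KO coverage among domains chosen by WT peaks. Tau-KO values below WT thus follow from the choice, and no test is given. Near NUPR2 (chr7:56548236-56579767), peaks covered 50.3% and 76.4% in WT, 16.2% and 31.5% in 231K, and 5.53% and 8.49% in 232P, so that the 4 Tau-KO samples all lay below WT. Near SIRPG (chr20:1721877-1742294) they covered 57.4% and 79.9% in WT, 3.04% and 67.1% in 231K, and 0.999% and 1.94% in 232P, where 231K replicate 2 stayed within the WT range.

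**Figure D4:**
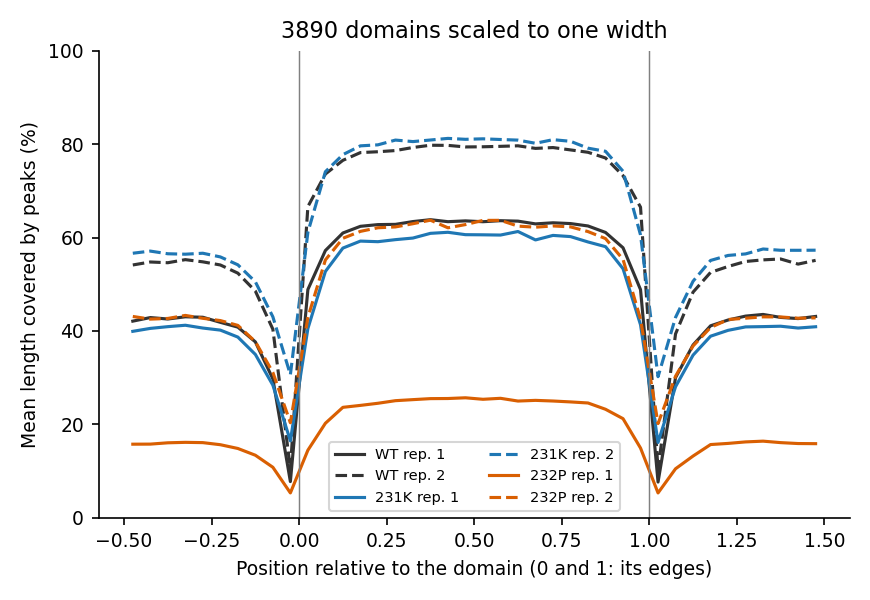
Mean covered share, in percent, along the 3890 domains scaled to the same width (0 and 1 are the edges) and along flanks of 0.5 domain widths, by sample. The share is lower at the edges than in the middle in all samples, and 232P replicate 1 is lowest throughout; the drop at the edges of the WT lines follows from the rule.

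Along the domains the covered share was higher in the middle than at the edges in all 6 samples. In the middle of the domains, peaks covered 63.5% and 79.5% in WT, 60.7% and 81.1% in 231K, and 25.6% and 63.1% in 232P. Just inside the edges the share was 0.838 and 0.880 times that in WT, 0.774 and 0.832 times in 231K, and 0.694 and 0.777 times in 232P. WT edges are set by WT peaks, so this contrast with WT is fixed by the rule, while that between 231K and 232P is not. The ratio was lower in 232P than in 231K in both replicate numbers, and the 2 genotypes overlapped.

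From 2 to 5 kb upward, wider intervals were covered more fully in all samples. From the narrowest class (under 1 kb) to domains of 100 kb or more, the ratio of 232P to 231K went from 0.533 to 0.682. It was 0.590 at 20 to 30 kb, 0.619 at 30 to 50 kb and 0.644 at 50 to 100 kb. Intervals of 10 to 20 kb, just under the threshold, gave 0.567, so no step lies at 20 kb. The share of intervals with 232P below 231K was 38.8% at 10 to 20 kb and between 39.4% and 42.6% in the wider classes.

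Chromosomes differed in density. Chromosome 7 held 402 domains, 25.2 per 10 Mb and 12.3% of its length, chromosome 19 had 22.5 per 10 Mb and chromosome 8 had 21.98, while chromosome 22 had 5.51 and chromosome 10 had 5.75. The local background of peaks on chromosome 7 was 1.504 times the genome-wide floor in WT replicate 1, against 1.00 to 1.27 on the other autosomes. SH-SY5Y is known to carry extra copies of chromosome 7, and the part of copy number in the density was not tested.

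By the rule without pairing, the chromosomes differed in how 232P stood to 231K. Both 232P samples were below both 231K samples in 11.2% of the domains of chromosome 7, 23.2% of chromosome 11 and 24.3% of chromosome 3, but in 81.6% of chromosome 20, 85.7% of chromosome 22, 90.9% of chromosome 19 and 91.6% of chromosome 16. Within the same replicate number the chromosomes were closer together, with 232P lower in 85.7% (chromosome 22) to 100% of a chromosome's domains in replicate 1 and in 92.8% (chromosome 7) to 100% in replicate 2. Over the 22 autosomes the share called without pairing went with the median GC content of the domains (Pearson's r = 0.837, Spearman's rho = 0.899, a description over chromosomes of the same 6 libraries). Chromosome 7 lay below the rest at like GC content. In the lowest GC class 232P was below 231K in 0.735% of 136 domains of chromosome 7 and in 10.9% of 642 elsewhere, and in the highest in 38.6% of 57 and 82.8% of 721. In the highest class all 6 samples were covered more on chromosome 7. There the share was 80.4% and 87.4% in WT (75.1% and 78.2% elsewhere), 74.0% and 86.6% in 231K (66.4% and 79.4%), and 54.8% and 73.4% in 232P (40.8% and 56.8%).

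**Figure D5:**
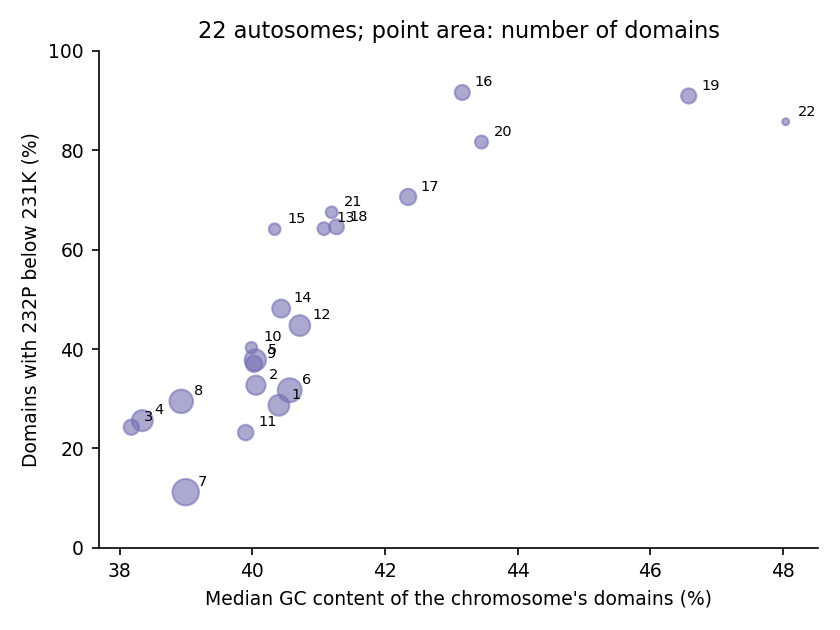
Percentage of a chromosome's domains in which both 232P samples lie below both 231K samples, against the median GC content of these domains in percent, for the 22 autosomes (numbers; point area, number of domains). The share goes from 11.2% on chromosome 7 to 91.6% on chromosome 16.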

How the data were processed

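H3K27me3 peaks of 6 ChIP samples, 2 per genotype, were analysed, grouped by the sample labels. The authors trimmed the reads, used BWA for mapping to hg38, and ran MACS (version 2) on each sample. Their methods name its broadPeak setting, whereas the deposited lists have the narrowPeak format, and which setting made them is not known, so peak widths, gaps and domain widths could differ in a broad call. The deposited lists give fold enrichment, a ratio of summit reads to local background, the -log10 p-value and -log10 q-value, and a score (10 times the -log10 q-value). The peak threshold and the control used are not given in the sources used here, and no normalization between samples was made. Covered share, number of peaks and highest fold enrichment of each domain were computed from the positions. Domains were named by GENCODE release 44, by the protein-coding genes with a start site inside, else the gene overlapped, else the nearest. Named are the 10 widest, the 10 of highest WT enrichment, the 5 largest differences each way between the lines among domains called lower or higher (0 were called higher in 232P), the 5 lowest in Tau-KO, those at the threshold and list members. Members and lists were chosen with earlier results of these data known, and sequences, gene families and the chromosome 7 region after the values were seen.

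Summit height and background were recovered from the ratio and the p-value, in whole reads within 0.001 of the -log10 p-value for 100% of peaks. The lowest background divided by the width of the shortest peak, assumed to be the fragment length, gave an estimate of the relative depth, since read totals are not in the lists. A missing peak means only that it was not detectable at that depth, and p-values measure the spread between these samples. Means per sample were compared with exact permutation tests in Python 3.11.15 with scipy 1.17.1. The study's own test, on read counts in peaks, could not be used on peak lists. Same-numbered samples deviated together: over the domains, the difference between replicates 1 and 2 correlated between genotypes with r = 0.532 (WT and 231K), 0.598 (WT and 232P) and 0.461 (231K and 232P), so permutation within replicate number was run as well. Merging, coverage, recovery and permutation were tested on simulated data. The alternatives changed the width, the merging distance, the peak threshold, the number of peaks, the depth and the replicates. Some items are not reported here.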

Additional observations from a re-analysis of the deposited data

How the results depend on the processing

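The number of domains followed the rule: 9335 at a width of at least 10 kb, 862 at 50 kb, 545 with only overlapping or touching peaks merged, 1326 at a -log10 q-value of at least 5, and 1667 to 3890 when 1 replicate was left out (1667 from WT replicate 1 alone). The count of domains with 232P below 231K was 3714, 362, 231 and 668 under the first 4 of these (39.8%, 42.0%, 42.4% and 50.4% of the domains then found). It was 995 (35.5%) with an equal number of strongest peaks and 907 (27.9% of the domains) with listed peaks thinned to equal estimated depth. Ranks among the domains of the same sample gave 521, and leaving out 1 replicate gave 962 to 3856. The count was 3778 without 231K replicate 1, 3856 without 232P replicate 2, and 962 (57.7% of 1667) without WT replicate 2. With the replicate number as a block, the permutation gave p = 0.444 for the ratio of 0.677 of own broad intervals between Tau-KO and WT, and p = 0.5, the smallest possible, for 0.314 and for the covered share ratio of 0.615 between 232P and 231K (exact tests), but no p below 0.05 was possible in these designs with or without the block. The ratios of own broad intervals and of covered share, of 232P to 231K and of Tau-KO to WT, stayed below 1 in the alternatives run. Without 1 replicate, own broad intervals of Tau-KO were 0.443 to 0.877 times those of WT and those of 232P 0.0747 to 0.554 times those of 231K. Without 232P replicate 1 the covered share ratios were 0.940 (Tau-KO to WT) and 0.882 (232P to 231K); their lowest values were 0.678 and 0.347. Leaving out chromosome 7, chosen after seeing the data, gave 0.602 for the latter. With listed peaks thinned to equal estimated depth and not called anew, 3252 domains were found. Own broad intervals were then 0.373 times as many in 232P as in 231K.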
